A study of Homo sapiens with 6 samples.

Results

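The Mediator kinase module was described through its 7 genes, CDK8, CDK19, CCNC, MED12, MED12L, MED13 and MED13L, out of 22465 genes that the array measured in a row with a single gene symbol. Each of the 7 had exactly 1 such row (a transcript cluster, the gene-level unit of the array), so no choice between rows was needed. All 7 passed the filter on low signal, which asked for log2 5 or more on 2 or more arrays. Expression was measured in 6 cultures of HCT116, an established human colon cancer line, with 1 array per culture. A control siRNA, written si(-), was used in 2 cultures, and siH19-1 and siH19-2, which are directed at the long noncoding RNA H19, were used in 2 cultures each. All 3 groups received siRNA at 50 nM by lipid transfection and were harvested after 48 h, so the transfection itself is shared by the controls. The groups are cultures of a single cell line, and no untransfected cells were among the samples. The labels call the replicates biological without saying what separates them. A limma p-value here sets a group difference against the spread between these cultures, estimated in part from all tested clusters.

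Mediator is the large complex that passes signals from DNA-bound transcription factors to RNA polymerase II. Its kinase module docks reversibly on the core complex and contains a cyclin-dependent kinase, CDK8 or its paralogue CDK19, with its partner cyclin C, encoded by CCNC. MED12 or MED12L activates the kinase, and MED13 or MED13L links the module to the core. Within each pair a single paralogue is thought to enter a given module. In colorectal cancer CDK8 is known as an oncogene that acts together with beta-catenin, and HCT116 cells carry an activated beta-catenin.

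The row that holds H19 is annotated to MIR675 as well, so its signal is not that of a single-symbol row. It had a log2 signal of 5 or more in 2 of 6 arrays only. With both siRNAs averaged it differed from control by 0.045 on the log2 scale (SE 0.10, limma adjusted p = 0.822). No fall of H19 was thus detectable, and all directions below rest on the array labels. Arrays of a group correlated at 0.993 to 0.995 across tested clusters, and arrays of different groups at 0.974 to 0.987. Of 10 colon epithelium markers 5 passed the filter, EPCAM, KRT8, KRT18, KRT19 and CDH1, while CDX1, CDX2, CDH17, VIL1 and LGR5 stayed under it. The mean log2 signal of the 10 markers was 7.27 to 7.34 in control arrays, 7.59 to 7.64 with siH19-1 and 7.66 to 7.73 with siH19-2, and the adhesion gene CDH1 was the only one of them that was called in any comparison. None of 4 endothelial markers passed the filter, and 1 of 5 fibroblast markers (COL1A1) and 1 of 5 leukocyte markers (CD68) did. CD68 alone among the leukocyte markers was higher with siH19-1, at 7.97 and 7.71 against 6.84 and 6.81 in control arrays, and the fibroblast marker COL1A1 was called higher with siH19-2, at 5.22 and 5.28 against 4.83 and 4.75 (log2 fold change 0.46, limma adjusted p = 0.0268). The part of either in any result below was not tested.

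The promoters of the kinase genes CDK8 and CDK19 are shown because these paralogues responded differently to siH19-2. Both windows run from 250 bases before to 50 bases after an annotated gene start in RefSeq, on GRCh38.p14, and are written 5′ to 3′ on the gene's strand. Capitals mark matches to 7 motifs searched on both strands: the TCF/LEF core is spelled CTTTGA, forms of the E2F motif are TTTGGCGC and TTTCCCGC, the E-box is spelled CACGTG, the CCAAT box is spelled by its name, the GC box motif reads GGGCGG, and the TATA box motif reads TATAAA. The CDK8 window lies at chr13:26253879-26254178 on the plus strand, and the CDK19 window at chr6:110815806-110816105 on the minus strand is the first of 3 that the table holds for this gene.
CDK8: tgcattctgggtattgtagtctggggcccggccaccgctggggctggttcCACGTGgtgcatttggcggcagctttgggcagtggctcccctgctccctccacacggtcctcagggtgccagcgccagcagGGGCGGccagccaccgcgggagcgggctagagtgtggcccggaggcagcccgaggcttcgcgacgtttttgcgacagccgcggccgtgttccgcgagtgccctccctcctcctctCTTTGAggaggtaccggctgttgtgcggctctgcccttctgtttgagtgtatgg
CDK19: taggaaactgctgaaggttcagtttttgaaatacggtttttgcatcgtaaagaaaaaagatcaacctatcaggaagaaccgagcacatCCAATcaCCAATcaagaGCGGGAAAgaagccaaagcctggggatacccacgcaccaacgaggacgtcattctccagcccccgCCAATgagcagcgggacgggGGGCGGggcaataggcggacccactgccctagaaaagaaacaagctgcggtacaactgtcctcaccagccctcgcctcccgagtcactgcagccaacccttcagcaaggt
The CDK8 window held 1 E-box, 1 GC box and 1 TCF/LEF core, and the last began 4 bases before the gene start. The CDK19 window held the CCAAT box at 3 places, the GC box at 1 and the reverse complement of the E2F form TTTCCCGC at 1. Among 27305 genes, the TCF/LEF core was found in 13.1% of such windows, the E-box in 7.43%, the GC box in 44.6%, the CCAAT box in 35.7% and TTTCCCGC in 1.66%. The other 2 CDK19 windows held none of the motifs but the GC box. A promoter was listed for 6 of the 7 genes, and MED13 was the one without an entry. These matches describe the letters in the windows only.

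CDK8 fell, MED13 rose, CDK19 and CCNC differed between the siRNAs, and MED12 and MED12L were called in no comparison. With both siRNAs averaged and set against control, 1 of the 7 genes was higher (MED13) and 1 lower (CDK8) at a limma adjusted p under 0.05, which is 28.6% of the module beside 12.4% of all 24721 tested clusters (5.19% higher and 7.17% lower). With siH19-1, 1 of 7 was called, a fall of CDK19, where 6.22% of clusters were called (2.65% higher and 3.56% lower), and with the replicate number as a block 3 of 7 were called, all lower, where that fit called 8.66% of clusters (4.86% lower). With siH19-2, 2 of 7 were called, CDK8 lower and MED13 higher, where 21% of clusters were called (10.2% higher and 10.8% lower). Between the siRNAs 4 of 7 were called, CDK19, CCNC and MED13 higher and CDK8 lower with siH19-2, where 18.2% were called (9.76% higher and 8.42% lower). Without any single array fewer of these 4 were called between the siRNAs. Without any single siH19 array the share of all clusters called between the siRNAs was lower as well. The CDK8 and MED13 calls with siH19-2 against control held without each of the 6 arrays. Each of those fits called a smaller share of all clusters with siH19-2 than the 21% of the main fit. With 7 genes a single call is a large share of the module, and nothing particular to the module is read from these counts. The median log2 fold change over the 7 genes was -0.17 for the mean of both siRNAs (0.015 over all tested clusters), -0.37 with siH19-1 (-0.02 over all) and -0.07 with siH19-2 (0.045 over all).

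**Figure D1:**
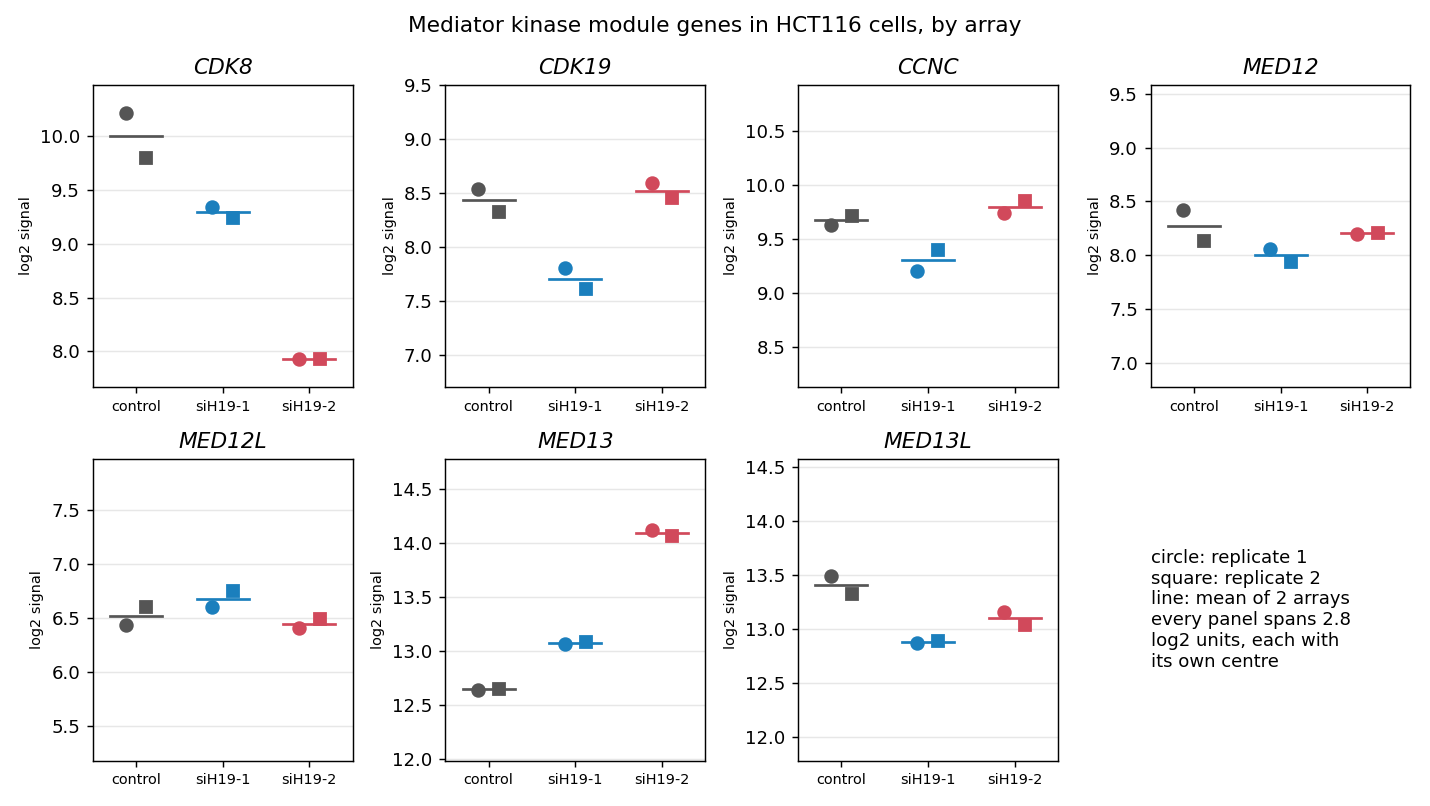
Log2 signal of the 7 module genes in each of 6 arrays, with a line at the mean of the 2 arrays of a group. Each panel spans 2.8 log2 units around its own centre, since signals of different genes are not comparable. CDK8 stepped down from 10.21 and 9.79 in control arrays to 7.93 and 7.93 with siH19-2, and MED13 stepped up from 12.64 and 12.65 to 14.12 and 14.06.

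CDK8, the kinase of the module, had a log2 signal of 10.21 and 9.79 in control arrays, 9.34 and 9.24 with siH19-1, and 7.93 and 7.93 with siH19-2. The 3 groups did not overlap, and every siH19-2 array lay below every siH19-1 array, which lay below both controls. This order of groups was seen in 5.97% of all tested clusters. The fall with siH19-2 was 2.07 on the log2 scale, with an SE of 0.16 and a 95% interval of -2.46 to -1.68. The signal was thus 4.20-fold lower (limma adjusted p = 0.00290). Its fold change with siH19-2 was at rank 65 from the lowest among 24721 clusters. With siH19-1 the log2 fold change was -0.71 (SE 0.16, 95% interval -1.10 to -0.32), and it did not pass (limma adjusted p = 0.0623, unadjusted 0.00481). It did pass with the replicate number as a block (limma adjusted p = 0.0438), with the filter at log2 6 (0.0456), with quantile normalization (0.0249), with scaling to the control probe sets (0.0244) and without control replicate 2 (0.0412). Compared directly, CDK8 was 1.36 lower on the log2 scale with siH19-2 than with siH19-1 (SE 0.16, limma adjusted p = 0.00704), a call lost without siH19-1 replicate 1 (0.0514), siH19-1 replicate 2 (0.0533) or siH19-2 replicate 1 (0.0558) while the value stayed between -1.41 and -1.31. As in any bulk RNA, fewer cells with CDK8 RNA and less CDK8 RNA per cell cannot be told apart.

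CDK19, the paralogue of CDK8 that can take its place in the module, followed another pattern. Its log2 signal was 8.54 and 8.32 in control arrays, 7.80 and 7.61 with siH19-1, and 8.59 and 8.45 with siH19-2. The siH19-1 arrays were the low ones, and the siH19-2 arrays overlapped the controls. With siH19-1 CDK19 fell by 0.725 on the log2 scale (SE 0.13, limma adjusted p = 0.0383), a 1.65-fold lower signal. That call was lost with no filter (limma adjusted p = 0.0912). It was also lost without any single one of the 6 arrays, while the value stayed between -0.835 and -0.615. Without either siH19-1 array no gene kept a call with siH19-1, so the loss in those fits is not particular to CDK19. With siH19-2 the log2 fold change was 0.09 with a 95% interval of -0.24 to 0.42, an interval that leaves out a fall of the size seen for CDK8. CDK19 was 0.815 higher with siH19-2 than with siH19-1 (SE 0.13, limma adjusted p = 0.0144), a call lost without any single one of the 4 siH19 arrays (0.0586 to 0.0913).

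Set side by side, CDK8 and CDK19 had nearly the same log2 fold change with siH19-1, -0.71 and -0.725, and -2.07 and 0.09 with siH19-2, where the interval of CDK19 includes 0 and its value was -0.020 without control replicate 2. The within-array difference of CDK8 minus CDK19 was 1.67 and 1.47 in control arrays, 1.54 and 1.63 with siH19-1, and -0.66 and -0.52 with siH19-2. Its change against control was 0.015 with siH19-1 and -2.16 with siH19-2. Only the change of this difference can be read, since the 2 rows use different probes. An exact two-sided permutation test of the 4 siH19 arrays against the 2 controls gave p = 0.333 (0.467 adjusted over the 3 pairs), and with 15 possible splits the smallest p such a test can give is 0.0667. That test pools both siRNAs, and the difference was far from control in the siH19-2 arrays alone.

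CCNC encodes cyclin C, the partner that both kinases need. Its log2 signal was 9.63 and 9.72 in control arrays, 9.21 and 9.40 with siH19-1, and 9.74 and 9.85 with siH19-2. All siH19-1 arrays were below and all siH19-2 arrays above the controls, an order seen in 5.12% of tested clusters. Neither siRNA passed against control, with log2 fold changes of -0.37 (SE 0.12, limma adjusted p = 0.148) and 0.12 (SE 0.12, adjusted p = 0.534). CCNC was 0.49 higher with siH19-2 than with siH19-1 (SE 0.12, limma adjusted p = 0.0431). This call was close to the threshold and was lost with no filter (0.101), quantile normalization (0.106), median centring (0.0696) and without any single one of the 6 arrays (0.0510 to 0.198).

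**Figure D2:**
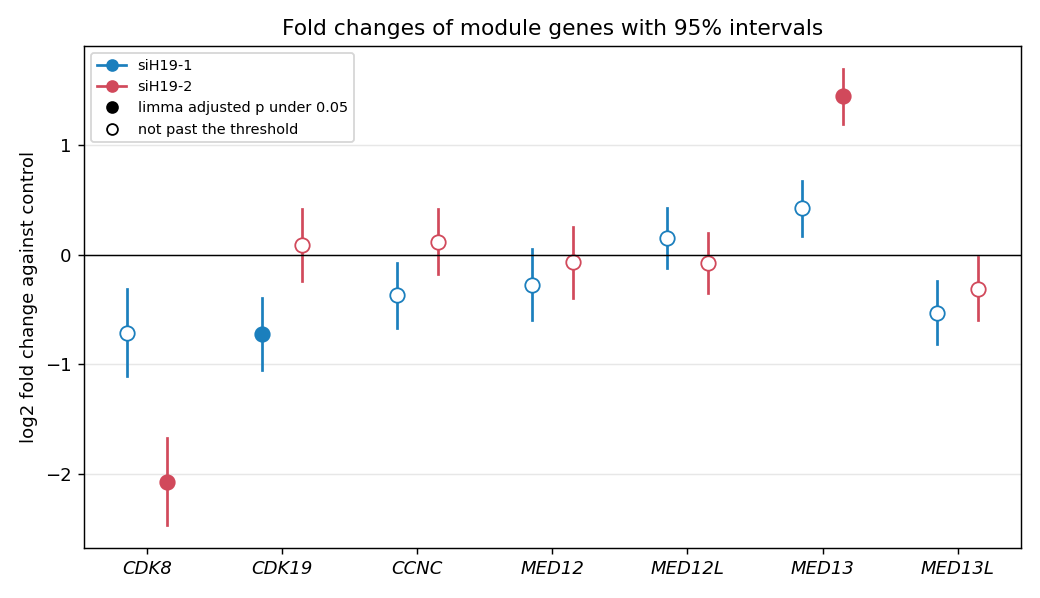
Log2 fold change against control of each module gene with siH19-1 and siH19-2, with 95% intervals from the limma fit. Filled points passed an adjusted p of 0.05. CDK8 (-2.07) and MED13 (1.445) with siH19-2 and CDK19 (-0.725) with siH19-1 passed, and the intervals of MED12 and MED12L include 0 with both siRNAs.

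MED12, the subunit that activates the kinase through cyclin C, showed no call. Its log2 signal was 8.42 and 8.13 in control arrays, 8.06 and 7.94 with siH19-1, and 8.20 and 8.21 with siH19-2. The siH19-1 arrays lay below both controls, as 27.3% of tested clusters did, and the siH19-2 arrays fell between the controls. Log2 fold changes were -0.275 with siH19-1 (95% interval -0.60 to 0.05, limma adjusted p = 0.294) and -0.07 with siH19-2 (-0.39 to 0.25, adjusted p = 0.751). MED12L, its paralogue, was at 6.44 and 6.61 in control arrays, 6.61 and 6.75 with siH19-1, and 6.41 and 6.49 with siH19-2. These groups overlapped in both comparisons with control. Its log2 fold changes were 0.155 with siH19-1 (95% interval -0.12 to 0.43) and -0.075 with siH19-2 (-0.35 to 0.20), so that changes beyond 1.35-fold up and 1.27-fold down lie outside those intervals. The difference MED12 minus MED12L changed by -0.43 with siH19-1 and by 0.005 with siH19-2 (exact two-sided permutation test over 6 arrays, p = 0.467, also adjusted over the 3 pairs).

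MED13, the large subunit that tethers the module to the core, rose. Its log2 signal was 12.64 and 12.65 in control arrays, 13.06 and 13.08 with siH19-1, and 14.12 and 14.06 with siH19-2. The groups did not overlap and ran in the reverse order of CDK8, as 5.14% of tested clusters did. With siH19-2 it rose by 1.445 on the log2 scale (SE 0.10, 95% interval 1.19 to 1.70, limma adjusted p = 0.00270), a 2.72-fold higher signal at rank 212 from the highest. With siH19-1 the log2 fold change was 0.425 (SE 0.10, 95% interval 0.17 to 0.68), which did not pass (limma adjusted p = 0.0747, unadjusted 0.00647). It passed under none of the 13 alternatives, and with the replicate block the limma adjusted p was 0.0540. MED13 was 1.02 higher with siH19-2 than with siH19-1 (SE 0.10, limma adjusted p = 0.00530), a call lost without siH19-1 replicate 2 (0.0518) or siH19-2 replicate 1 (0.0506).

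MED13L, the paralogue of MED13, lay below control with both siRNAs. Its log2 signal was 13.49 and 13.33 in control arrays, 12.87 and 12.89 with siH19-1, and 13.16 and 13.04 with siH19-2. The siH19-1 arrays were lowest and no groups overlapped, an order seen in 3.13% of tested clusters. Log2 fold changes were -0.53 with siH19-1 (SE 0.12, limma adjusted p = 0.0593) and -0.31 with siH19-2 (SE 0.12, adjusted p = 0.119), neither past the threshold. In the mean of both siRNAs MED13L was at -0.42 and just missed it (limma adjusted p = 0.0516). It passed there with the replicate block (limma adjusted p = 0.0341), the filter at log2 6 (0.0429), no trend (0.0430), quantile normalization (0.0226) and scaling to the control probe sets (0.0495). The module count in the mean was thus 3 of 7 under these 5 alternatives. In the same order they called 16.5%, 18.2%, 12.5%, 15.1% and 14.7% of all clusters, beside 12.4% in the main fit. With siH19-1 MED13L passed with the replicate number as a block (limma adjusted p = 0.0412), with the filter at log2 6 (0.0468), without the intensity trend (0.0498), with quantile normalization (0.0344) and with scaling to the control probe sets (0.0358). With siH19-2 it passed with quantile normalization (0.0365).

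MED13 and MED13L thus had fold changes of opposite sign with each siRNA, of which only the MED13 rise with siH19-2 passed in the main fit. The within-array difference of MED13 minus MED13L was -0.85 and -0.68 in control arrays, 0.19 and 0.19 with siH19-1, and 0.96 and 1.02 with siH19-2. It moved by 0.955 with siH19-1 and by 1.755 with siH19-2, and no groups overlapped. The exact two-sided permutation test of 4 siH19 arrays against 2 controls gave p = 0.0667 (0.200 adjusted over the 3 pairs), which is the smallest it can give. That test exchanges arrays across replicate numbers. With labels exchanged only within a number, 9 arrangements exist and the exact permutation p was 0.111, the smallest these allow (0.444 for each of the other pairs). In the other 2 pairs the 4 siH19 arrays did not all fall to 1 side of the controls.

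**Figure D3:**
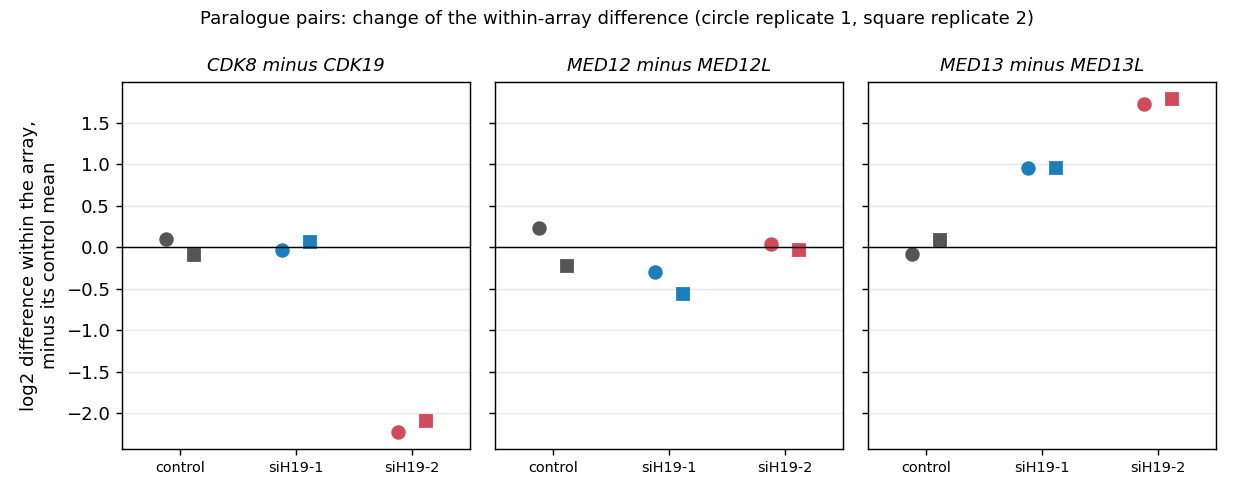
Within-array difference of log2 signals for the 3 paralogue pairs, minus the mean difference of the control arrays, in each of 6 arrays. CDK8 minus CDK19 left control with siH19-2 only (a change of -2.16 against 0.015 with siH19-1), while MED13 minus MED13L stepped up by 0.955 and 1.755.

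Genes of the core Mediator complex, to which the module binds, had fold changes between -0.81 and 0.465 with siH19-2, a range that takes in the values of 5 module genes and not those of CDK8 and MED13. With siH19-1 the core ran from -1.025 to 0.285, a range that takes in CDK8 (-0.71) and CDK19 (-0.725) and not MED13 (0.425). Of 26 core subunits 24 had a row with a single symbol and were tested. In the mean of both siRNAs 4 fell (MED16, MED21, MED28 and MED30) and 0 rose, with a median log2 fold change of -0.17. That is 16.7% beside 12.4% of all clusters. In the mean the MED21 and MED30 calls were lost whichever array was left out, and those of MED16 and MED28 each held in 1 of the 6 such fits. With siH19-1, 1 of 24 fell (4.17% beside 6.22% of all clusters, median -0.135), and with siH19-2, 5 fell (20.8% beside 21% of all clusters, median -0.20) and 0 rose (at an unadjusted limma p under 0.05, 8 were lower and 1 higher, as 35.6% of all clusters were in either direction). In the middle part, MED21 was at 10.63 and 10.63 in control arrays, 10.50 and 10.41 with siH19-1, and 9.84 and 9.84 with siH19-2. It fell by 0.79 on the log2 scale with siH19-2 (limma adjusted p = 0.00697). MED14, the scaffold that joins head, middle and tail, fell by 0.81 with siH19-2 (limma adjusted p = 0.0113) and was at -0.075 with siH19-1 (0.806). In the tail MED16 (-0.695) and MED30 (-0.505) fell with siH19-2, and MED28 fell with siH19-1 (-1.025, limma adjusted p = 0.0326). MED11 of the head (-0.43, limma adjusted p = 0.0498) completed the 5 falls with siH19-2. MED30 had signals of 4.99 to 5.53 and MED11 of 5.12 to 5.71, close to the filter. No head, middle or tail subunit rose with either siRNA, and MED20 (0.42) and MED23 (0.465) had the highest values with siH19-2 without passing. Between the siRNAs, MED14 (-0.735) and MED21 (-0.615) were lower with siH19-2 and MED19 (0.665) was higher, MED19 being named after its value was seen. These 3 calls between the siRNAs were each lost without 4 of the 6 arrays (limma adjusted p up to 0.0997, 0.0963 and 0.105). None of these calls against control held without each of the arrays: the highest limma adjusted p with siH19-2 was 0.0556 for MED21 and 0.0788 for MED14 and 0.0915 to 0.217 for MED30, MED16 and MED11, and for MED28 with siH19-1 it was 0.167. Without either siH19-1 array no gene kept a call with siH19-1, MED28 included. With the replicate number as a block MED11 (0.0583) did not pass with siH19-2.

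**Figure D4:**
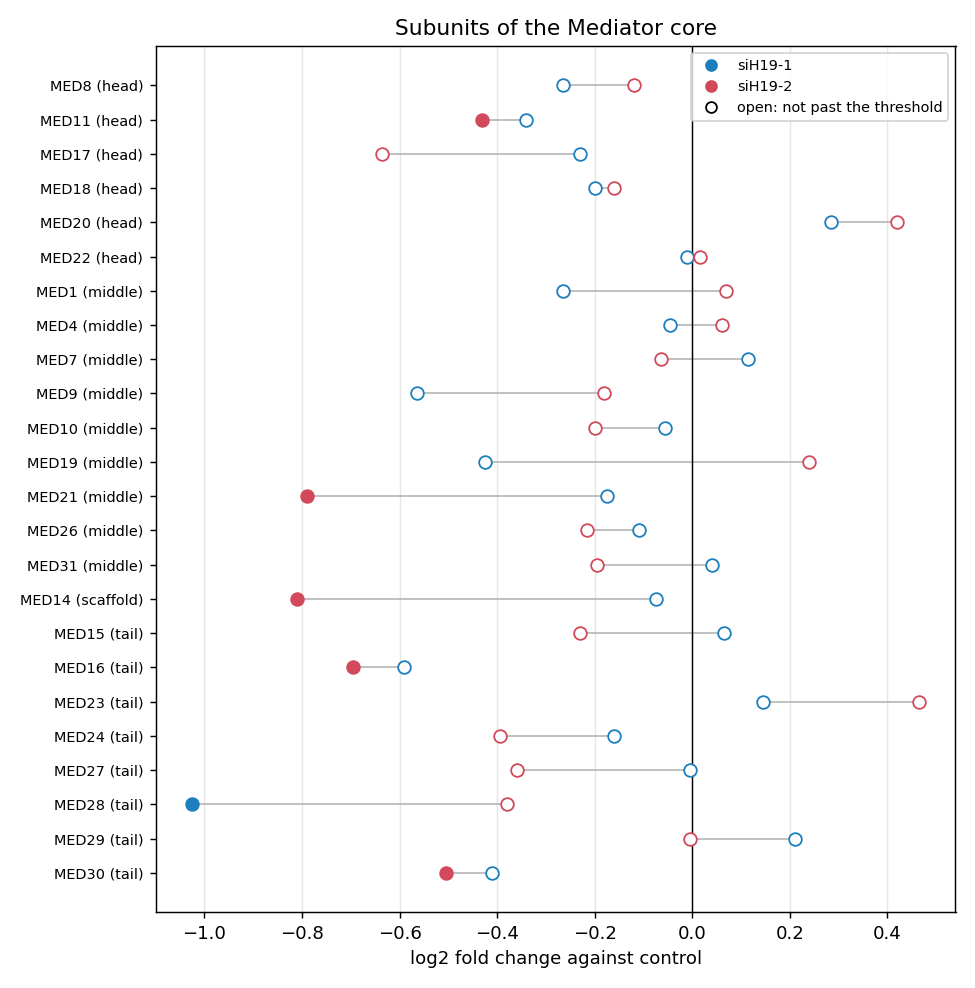
Log2 fold change against control of 24 subunits of the Mediator core, by part, with siH19-1 and siH19-2. Filled points passed a limma adjusted p of 0.05, which were 5 falls with siH19-2 and 1 fall (MED28, -1.025) with siH19-1.

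CDK8 belongs to a group of kinases that act on the tail of RNA polymerase II. Among the others and their partners, CDK7 and several cyclins were called with siH19-2. Of 14 such kinases and partners 12 were tested. With siH19-1 none was called by limma (2 were higher and 1 lower at an unadjusted p under 0.05, as 22.3% of all clusters were in either direction), and with siH19-2, 4 rose and 2 fell, which is 50% beside 21% of all clusters. The list was chosen with earlier results of these data known, so no enrichment is read from this share. CCNT2, a cyclin of the elongation factor P-TEFb, was at 9.08 and 8.93 in control arrays, 9.60 and 9.33 with siH19-1, and 10.47 and 10.14 with siH19-2. It rose by 1.30 on the log2 scale with siH19-2 (SE 0.17, limma adjusted p = 0.00660). CDK7, the kinase of the general factor TFIIH, fell by 0.70 with siH19-2 (limma adjusted p = 0.0155) and its partner cyclin gene CCNH rose by 0.61 (adjusted p = 0.0237). CCNL1 (0.785) and CCNL2 (0.54), cyclins linked to splicing, rose with siH19-2, and CCNK (-0.425), the cyclin of CDK12 and CDK13, fell. CDK12 (-0.27) and CDK13 (0.165) themselves did not pass. The CCNT2 call with siH19-2 held without each of the 6 arrays, and those of CDK7 and CCNL1 were each lost without at least 1 array. That of CCNH held in 1 of the 6 such fits only. The CCNL2 and CCNK calls were lost whichever array was left out.

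Beta-catenin and its nuclear partners are the pathway with which CDK8 is linked in colon cancer. Of 14 such genes 12 had a row with a single symbol and 10 were tested. With siH19-1, 1 of 10 fell and 0 rose (10% beside 6.22% of all clusters, median -0.20), and with siH19-2, 3 fell and 2 rose (median -0.31), which is 50% beside 21% of all clusters. Here too the list was chosen with earlier results known, and no enrichment is read from these shares. CTNNB1, the beta-catenin gene, was at 9.36 and 9.15 in control arrays, 9.09 and 8.95 with siH19-1, and 8.44 and 8.40 with siH19-2. Its order of groups was that of CDK8, with a fall of 0.835 with siH19-2 (SE 0.12, limma adjusted p = 0.00942) and -0.235 with siH19-1 (adjusted p = 0.334). TCF7L2, the main DNA-binding partner of beta-catenin in colon cells, moved in opposite directions, at -0.52 with siH19-1 (limma adjusted p = 0.0465) and 0.46 with siH19-2 (adjusted p = 0.0314), and the difference of 0.98 between them passed (adjusted p = 0.00585) but was lost without 3 of the 6 arrays (up to 0.0540). With siH19-2 the co-activator gene BCL9L rose (0.945), and TCF7L1 (-0.425) and the co-repressor gene TLE3 (-0.595) fell. BCL9, the paralogue of BCL9L, fell in the mean of both siRNAs (-0.60, limma adjusted p = 0.0382) and passed with neither alone. The BCL9L call with siH19-2 held without each of the 6 arrays (limma adjusted p up to 0.0426). With siH19-2 the calls of CTNNB1 and TLE3 were lost without at least 1 array. Those of TCF7L1 with siH19-2, of TCF7L2 with either siRNA and of BCL9 in the mean were lost whichever array was left out. For TCF7L2 with siH19-1 this includes the fits without a siH19-1 array, in which no gene kept a call with siH19-1. TCF7L2 also missed the threshold with quantile normalization (0.0614 with siH19-1, 0.0553 with siH19-2).

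Among 9 factors that CDK8 is reported to act on, or that act on the module, 8 were tested, of which 1 rose with siH19-1 (12.5% beside 6.22% of all clusters) and 3 rose and 3 fell with siH19-2 (75% beside 21% of all clusters). As these factors were listed with earlier results of these data known, no enrichment is read from these shares. STAT3, a cytokine-activated factor, was at 8.87 and 8.60 in control arrays, 10.43 and 10.44 with siH19-1, and 10.43 and 10.44 with siH19-2. Its log2 fold change was 1.70 with each siRNA (SE 0.13, limma adjusted p = 0.00807 and 0.00290). SMAD3, of the TGF-beta pathway, rose by 1.715 with siH19-2 (SE 0.16, limma adjusted p = 0.00374) and was at 0.17 with siH19-1 (adjusted p = 0.617). In the mean of both siRNAs SMAD3 was called too (0.94), although its siH19-1 arrays overlapped the controls, and that call was lost without 3 of the 6 arrays (limma adjusted p up to 0.0602). SREBF1 (0.50) of lipid synthesis also rose with siH19-2, and SMAD1 (-0.55), NOTCH1 (-0.445) and E2F1 (-0.43) fell. With siH19-2 the calls of STAT3 and SMAD3 held without each of the 6 arrays. The SMAD1 call was lost without at least 1 array, and the NOTCH1 call held in 1 of the 6 such fits only. Those of SREBF1 and E2F1 were lost whichever array was left out. With siH19-1 the STAT3 call was lost without either siH19-1 array, while the value stayed between 1.565 and 1.835. In those fits no gene kept a call with siH19-1.

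The genes next to CDK8 on chromosome 13 were looked at as well. Of the 5 protein-coding genes on each side in the RefSeq table, 9 had a row with a single symbol and 4 passed the filter. With siH19-1, 1 of these 4 rose and 1 fell (50% beside 6.22% of all clusters). With siH19-2, 1 rose and 0 fell (25% beside 21% of all clusters). No enrichment is read from shares of 4 genes. NUP58, of the nuclear pore, was higher with both siRNAs, by 1.27 with siH19-1 (limma adjusted p = 0.00873) and 0.605 with siH19-2 (adjusted p = 0.0164). The ubiquitin ligase gene RNF6 was lower with siH19-1 (-0.64, limma adjusted p = 0.0261) and at -0.285 with siH19-2 (adjusted p = 0.0991). With siH19-1 the RNF6 value was thus close to that of CDK8 (-0.71). MTMR6 (0.42 with siH19-1 and 0.19 with siH19-2) and USP12 (-0.175 and -0.14) did not pass with either siRNA. The RNF6 call with siH19-1 was lost whichever array was left out, while the value stayed between -0.685 and -0.595. Both NUP58 calls were lost without at least 1 array. Its values stayed between 1.21 and 1.33 with siH19-1 and between 0.545 and 0.665 with siH19-2. Without either siH19-1 array no gene kept a call with siH19-1.

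The profiles most like that of CDK8 were sought among 11190 other tested genes, by the Euclidean distance of the log2 signals over 6 arrays after subtracting each gene's control mean. The 6 nearest were NFE2L3 (distance 0.178), the mitotic transcription factor gene FOXM1 (0.285), APRT of adenine salvage (0.293), the proliferation marker gene MKI67 (0.312), the histone gene H2BC11 (0.363) and PGD of the pentose phosphate pathway (0.383). As a description, NFE2L3 was at -0.635 with siH19-1 and -2.095 with siH19-2, and FOXM1 at -0.715 and -2.01. The 6 nearest to MED13 were the actin-bundling gene PLS3 (0.174), TANC2 (0.265), B2M of the class I antigen complex (0.274), TMBIM6 (0.279), the laminin gene LAMB2 (0.282) and RICTOR of the mTOR complex (0.317). PLS3 was at 0.465 with siH19-1 and 1.465 with siH19-2.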

How the data were processed

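RNA of 6 HCT116 cultures was measured on 1 whole-transcript array each. The deposited values are log2 signals, made by the authors with Affymetrix Expression Console and RMA per the submitters' processing notes. Versions and the genome build are not given in the sources used here. Of 70523 rows, 67528 were transcript clusters and 2995 other rows stayed out of the tests. Symbols came from the platform annotation, updated through a RefSeq table (GRCh38.p14). Tested were 24721 clusters that reached log2 5 on 2 or more arrays. The 6 arrays entered 1 limma model by group (limma 3.58.1, R 4.3.3, lmFit, eBayes with intensity trend; 3 residual and 2.75 prior degrees of freedom). Each p was two-sided and Benjamini-Hochberg adjusted over all tested clusters, with a threshold of 0.05. After subtraction of group means, arrays that share a replicate number in their titles had correlations of 0.286, 0.203 and 0.198 for the 3 pairs of groups. A fit with the replicate number as a block was therefore made beside the main one, which leaves it out. The labels do not say that arrays of the same number are paired, and with 2 arrays per group these correlations cannot decide it. The fit was tested on simulated data. The number of arrays limits the precision. Paralogue pairs were compared with an exact permutation test. The members, gene lists, motifs and naming rule were chosen with earlier results of these data known. Named were the 7 members, H19, list members called in the mean of both siRNAs or with either siRNA, and the 6 profiles nearest to CDK8 and to MED13. Alternatives were other filters and normalizations, no trend, a replicate block and each array left out.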

Additional observations from a re-analysis of the deposited data

Results flagged for a closer look

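The following genes had a log2 fold change that differed between siH19-2 and siH19-1 in the direct comparison (limma adjusted p under 0.05). Values are siH19-2 minus siH19-1. In the kinase module these were CDK8 (-1.36), CDK19 (0.815), CCNC (0.49) and MED13 (1.02). In the Mediator core they were MED14 (-0.735), MED21 (-0.615) and MED19 (0.665). Among kinases and partners acting on RNA polymerase II they were CCNH (0.82), CCNT2 (0.84), CCNK (-0.505), CCNL1 (0.91), CCNL2 (0.455) and HEXIM1 (-0.82), an inhibitor of P-TEFb named after its value was seen. CTNNB1 (-0.60), TCF7L2 (0.98) and BCL9L (0.74) of the beta-catenin list, NOTCH1 (-0.725), SMAD3 (1.545) and the CDK8 neighbour NUP58 (-0.665) differed as well. The share of all clusters that differed was 18.2%. SMAD3 alone kept its call without each of the 6 arrays (limma adjusted p up to 0.0457), and each of the other calls was lost without at least 1 array, with highest values from 0.0518 (MED13) to 0.226 (CCNL2). Each siRNA was represented by 2 arrays, and these comparisons share them.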

How the results depend on the processing

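CDK8 and MED13 kept their direction and call in the mean of both siRNAs and with siH19-2 under all 13 alternatives, with CDK8 between -2.28 and -1.86 with siH19-2 without single arrays (between -1.60 and -1.18 in the mean, -0.92 and -0.50 with siH19-1, -1.41 and -1.31 between the siRNAs). With siH19-1, CDK8 passed with the replicate block (-0.71), the filter at log2 6 (-0.71), quantile normalization (-0.69) and scaling to the control probe sets (-0.72). In the same order, these fits called 2142 (8.66%), 1817 (10.4%), 1989 (8.07%) and 2016 (8.11%) of all clusters they tested with siH19-1. Without the trend 1572 (6.36%) were called and with no filter 607 (0.899%), beside 1537 (6.22%) in the main fit. The count of module genes called with siH19-1 was 3 with the block, the log2 6 filter, quantile normalization and that scaling, and 2 without the trend. It was 0 with no filter and 0 to 1 without single arrays. It was 0 to 3 between the siRNAs and 2 in the other comparisons without single arrays. The replicate block changed no other call of a module gene than those of CDK8 and MED13L given in the report. It ended the calls of MED11 with siH19-2 and MED16 in the mean (0.0563) among the other named genes. The clusters called in the mean, with siH19-1, with siH19-2 and between the siRNAs numbered 1489, 607, 3108 and 2667 with no filter, which tests more clusters. Without single arrays they numbered 631 to 1735, 0 to 751, 1284 to 3630 and 539 to 4806, with fewer arrays and degrees of freedom in the fit. The count of 0 with siH19-1 came without either siH19-1 array, where limma gave 3933 and 3796 clusters at an unadjusted p under 0.05. Scaling to the control probe sets shifted the median of all clusters from 0.045 to 0.159 with siH19-2 and from 0.06 to 0.187 between the siRNAs, and moved higher and lower calls from 2527 and 2676 to 4094 and 2218, and from 2414 and 2081 to 4400 and 1818. Signs turned only in values that had not passed: MED12L in the mean (-0.0125 with median centring, -0.045 and 0.125 without control replicate 1 and 2), MED12 with siH19-2 (0.044 with scaling to the control probe sets, 0.075 and -0.215 without control replicate 1 and 2), MED12L with siH19-2 (0.039 with that scaling, -0.16 and 0.010 without control replicate 1 and 2) and CDK19 with siH19-2 (0.20 and -0.020 without control replicate 1 and 2). The cause was not tested. The change of CDK8 minus CDK19 in the mean was -1.17 to -0.97 without single arrays, that of MED13 minus MED13L 1.27 to 1.44, and that of MED12 minus MED12L -0.44 to 0.0175, positive (0.0175) without control replicate 1. A mean over several rows of a gene was not run, since each module gene had 1 row. Alternatives for the other named genes were chosen after seeing the data.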
